A study of Mus musculus with 8 samples.

Results

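Cytochrome P450 genes of families 1 to 4 were examined in intestinal epithelial cells of lactating mice with and without the receptor RANK. The members were the protein-coding genes whose symbol is Cyp, a family number from 1 to 4, a subfamily letter and a gene number. The rule gave 74 genes among the 54532 genes of the count table. Of these, 25 had at least 20 counts summed over the 8 libraries and are described, 21 had 1 to 19 counts, and 28 had 0 counts. A sum of 0 allowed a level of up to 0.139 CPM (counts scaled to a library size of 1e6) over all libraries, taking 3 counts of the total as the limit, which covers counting error only.

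Libraries came from epithelial cells of the intestine at lactation day 5, with 4 samples labelled WT and 4 labelled Rank-knockout. Rank (gene symbol Tnfrsf11a) is the receptor for the cytokine RANKL and activates NF-κB. Per the methods of the study, the knockout was made by crossing floxed Rank mice to mice with Cre recombinase under the Villin promoter, so that deletion is limited to the intestinal epithelium. Animals were female C57BL/6J littermates, the dams of both genotypes were mated to wild-type males, and the methods give age only as a wide range for the mice of the whole study. Whether the WT animals carried Cre is not given in the sources used here. The labels do not say whether each sample is 1 animal, so p values measure the spread between these samples.

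P450 enzymes are heme proteins of the endoplasmic reticulum that insert an oxygen atom into their substrate and take electrons from P450 reductase. Families 1 to 3 oxidise drugs, food compounds, steroids and polyunsaturated fatty acids, and family 4 mostly hydroxylates fatty acids and eicosanoids at the far end of the chain. In the small intestine they act in absorptive enterocytes of the villus as a first barrier to what is eaten. Their genes are classic targets of receptors that sense foreign compounds, with AHR for Cyp1a1, CAR for Cyp2b10 and PXR for Cyp3a11.

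To show the sequences next to the genes whose levels are described, the 250 bases before the transcription start were taken from RefSeq (GRCm38.p6) for 6 members. These are the most abundant member (Cyp3a13), the member with the largest fall (Cyp2c29), the classic receptor targets Cyp3a11, Cyp2b10 and Cyp1a1, and Cyp2c65 as a second member with the motif CAAAGTCCA. Each runs 5′ to 3′ in the sense of the gene. RefSeq starts differ from the ends of the GENCODE gene spans given with the values, which cover all transcripts of a gene: the stretches of Cyp2c29 and Cyp1a1 lie inside those spans, and those of Cyp3a11 and Cyp2b10 do so in part. Capitals mark the HNF4 motif CAAAGTCCA, the AHR core GCGTG (read as CACGC on the other strand) and the letters TATAAA of a TATA box, wherever they lie.

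Cyp3a11, chr5:145879855-145880104, minus strand: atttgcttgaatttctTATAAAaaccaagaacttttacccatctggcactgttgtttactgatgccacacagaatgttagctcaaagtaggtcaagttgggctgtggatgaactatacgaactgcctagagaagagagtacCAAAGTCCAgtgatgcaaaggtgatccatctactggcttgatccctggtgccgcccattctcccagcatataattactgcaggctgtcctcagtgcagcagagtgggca

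Cyp3a13, chr5:137921620-137921869, minus strand: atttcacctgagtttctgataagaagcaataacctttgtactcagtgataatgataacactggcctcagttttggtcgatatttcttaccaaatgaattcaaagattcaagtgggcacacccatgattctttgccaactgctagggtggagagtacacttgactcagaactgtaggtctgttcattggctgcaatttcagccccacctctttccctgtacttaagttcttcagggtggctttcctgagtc

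Cyp2c65, chr19:39060756-39061005, plus strand: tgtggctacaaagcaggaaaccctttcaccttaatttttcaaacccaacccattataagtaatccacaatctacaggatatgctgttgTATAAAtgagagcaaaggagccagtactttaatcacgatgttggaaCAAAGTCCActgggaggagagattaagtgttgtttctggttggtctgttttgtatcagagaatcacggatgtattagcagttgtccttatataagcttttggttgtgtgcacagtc

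Cyp2c29, chr19:39286835-39287084, plus strand: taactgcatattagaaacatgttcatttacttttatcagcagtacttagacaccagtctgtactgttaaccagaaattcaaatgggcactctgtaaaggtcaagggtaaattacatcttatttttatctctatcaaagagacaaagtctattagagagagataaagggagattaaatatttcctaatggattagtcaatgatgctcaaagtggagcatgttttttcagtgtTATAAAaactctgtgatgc

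Cyp2b10, chr7:25897408-25897657, plus strand: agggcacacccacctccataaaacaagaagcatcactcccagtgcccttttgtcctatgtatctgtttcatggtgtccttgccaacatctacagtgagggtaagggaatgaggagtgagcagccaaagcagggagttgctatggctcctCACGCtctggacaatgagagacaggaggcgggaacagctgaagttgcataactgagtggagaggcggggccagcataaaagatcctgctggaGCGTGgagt

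Cyp1a1, chr9:57697363-57697612, plus strand: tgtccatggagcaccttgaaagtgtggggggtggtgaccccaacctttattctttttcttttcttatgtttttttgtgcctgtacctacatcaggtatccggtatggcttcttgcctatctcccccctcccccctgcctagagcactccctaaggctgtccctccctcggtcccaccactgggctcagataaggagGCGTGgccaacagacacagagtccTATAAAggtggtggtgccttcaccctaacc

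RefSeq promoters were found for 22 of the 25 described members, and motifs were searched on both strands from 250 bases before to 50 bases after the start. The motifs were chosen after the sequences had been seen, and no 2 of the marked matches overlap. CAAAGTCCA lay in 3 members, at 109 bases before the start in Cyp3a11, 116 in Cyp2c65 and 77 in Cyp2c68, while 0.475% of all 32851 promoters held it. TATAAA lay in 9 members against 13.6% of all promoters, at 19 to 31 bases before the start in Cyp2c29, Cyp2c55, Cyp1a1, Cyp2c38 and, on the other strand, Cyp2d26. In Cyp3a44, Cyp2c66, Cyp2c65 and Cyp3a11 it lay at 122, 150, 162 and 234 bases, farther from the start than a TATA box acts. GCGTG lay in 7 members against 32.4%, with 1 match in Cyp1a1 at 54 bases and 2 in Cyp2b10 at 101 and 9 bases. The nuclear receptor core AGGTCA lay in 4 members against 16.3%, namely Cyp2c29, Cyp3a11, Cyp3a25 and Cyp3a44. GTTAAT, part of the HNF1 motif, lay in 4 members against 7.10%, and the GATA motif AGATAAG lay in 2 against 3.04%. A match describes the letters only and was not tested as a binding site. Cyp3a11, which holds CAAAGTCCA, and Cyp3a13, which does not, were both called lower. Whether a motif and a change go together was not tested.

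The total count per library ran from 1530781 to 4335653, with medians of 1609942.5 in the WT libraries and 3070751 in Rank-knockout, so low members were measured less precisely in most WT libraries. The targeted gene Tnfrsf11a had 60.7 ± 17.7 CPM in WT against 37.98 ± 8.64 CPM in Rank-knockout (SD, n = 4), and the ranges overlapped (log2 fold change -0.67, SE 0.22, edgeR with adjusted p = 0.032). That call was lost without WT replicate 1 or 4 (-0.55 and -0.58, edgeR adjusted p = 0.098 and 0.085). It was also lost without replicate 1 or 3 of Rank-knockout (-0.52 and -0.64, edgeR adjusted p = 0.104 and 0.075). Tags at the 3′ end can lie outside the deleted stretch, so this gene does not check the labels.

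Most tested P450 genes of these families were lower in Rank-knockout than in WT epithelium. Of the 20 members that passed edgeR's filter on low counts, 14 were lower in Rank-knockout and 0 were higher at an edgeR adjusted p under 0.05. Among all 9855 genes tested, 14.6% were called lower and 15.8% higher, or 30.4% in either direction. The count of 0 higher also held at an unadjusted p under 0.05 and with DESeq2 and limma-voom, while 19 members were lower at an unadjusted p under 0.05. The median log2 fold change (Rank-knockout minus WT) of the tested members was -1.22, against 0.02 for all genes tested. Falls of the called members ran from 1.66-fold for Cyp2s1 to 4.96-fold for Cyp2c29, and 12 of the 14 were at least 2-fold. The WT and Rank-knockout libraries did not overlap in 15 of the 20 members, with every WT library higher in each, compared with 14.3% of all tested genes that were lower without overlap and 28.8% without overlap in either direction.

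**Figure D1:**
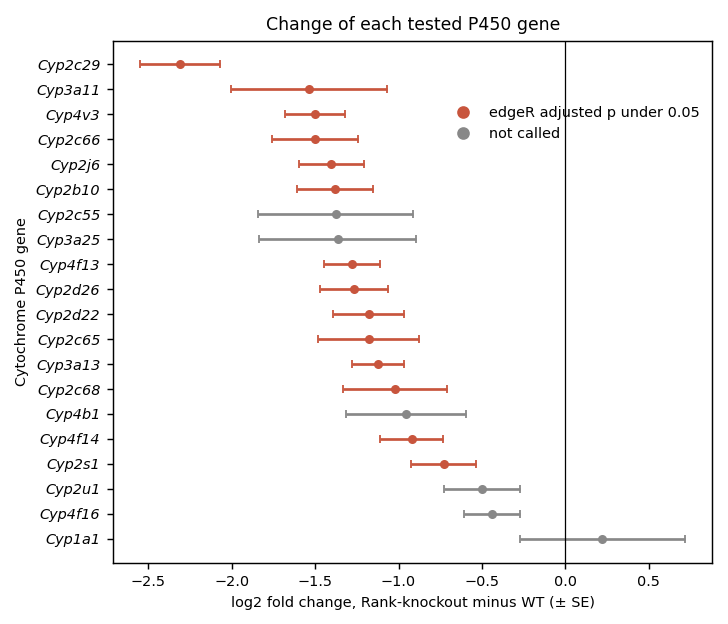
Log2 fold change of each of the 20 tested P450 genes, Rank-knockout minus WT, with bars of 1 standard error (SE), from edgeR on 4 libraries per genotype. Genes called lower are in red and genes not called in grey. All but Cyp1a1 lie below 0, with Cyp2c29 lowest at -2.31.

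Summed over the 25 described members, the level was 8668, 7250.3, 6840.2 and 7728 CPM in WT replicates 1 to 4. In Rank-knockout replicates 1 to 4 it was 2559.7, 3831, 3477 and 3439 CPM. The groups did not overlap, and the Rank-knockout mean of 3327 ± 541 CPM was 43.6% of the WT mean of 7622 ± 786 CPM (SD, n = 4 per genotype). As a share of all counts the members took 0.707% ± 0.088 in WT against 0.353% ± 0.052 in Rank-knockout (SD, n = 4). These libraries are bulk samples, so fewer cells that make a transcript and less of it per cell cannot be told apart.

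**Figure D2:**
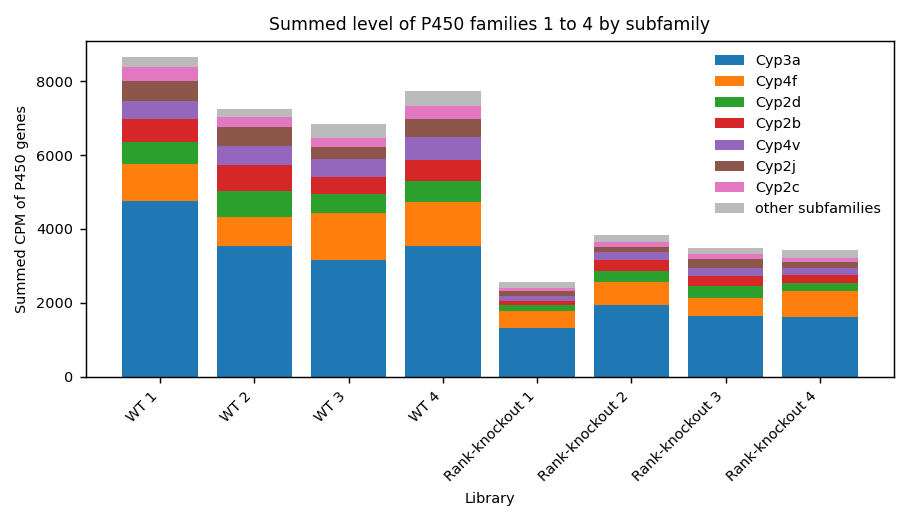
Summed CPM of the described P450 genes in each of the 8 libraries, stacked by subfamily. The 4 WT bars stand between 6840.2 and 8668 CPM and the 4 Rank-knockout bars between 2559.7 and 3831 CPM, and Cyp3a is the tallest segment of each bar.

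The chemistry counts about 1 tag at the 3′ end of each transcript whatever its length, so CPM values were not divided by length and can be set beside each other between genes. On that scale the order was led by Cyp3a13 in both genotypes, followed by Cyp4f14 and Cyp3a11. In WT the lowest Cyp3a13 library (2492 CPM) lay above the highest value of every other member, which was 1128 CPM for Cyp3a11. Below it the WT ranges of Cyp4f14, Cyp3a11, Cyp2b10, Cyp2d26, Cyp4v3 and Cyp2j6 overlapped in turn. Cyp3a13 made up 37.0% ± 3.46 of all member counts in the WT libraries and 39.4% ± 5.10 in Rank-knockout (SD, n = 4).

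**Figure D3:**
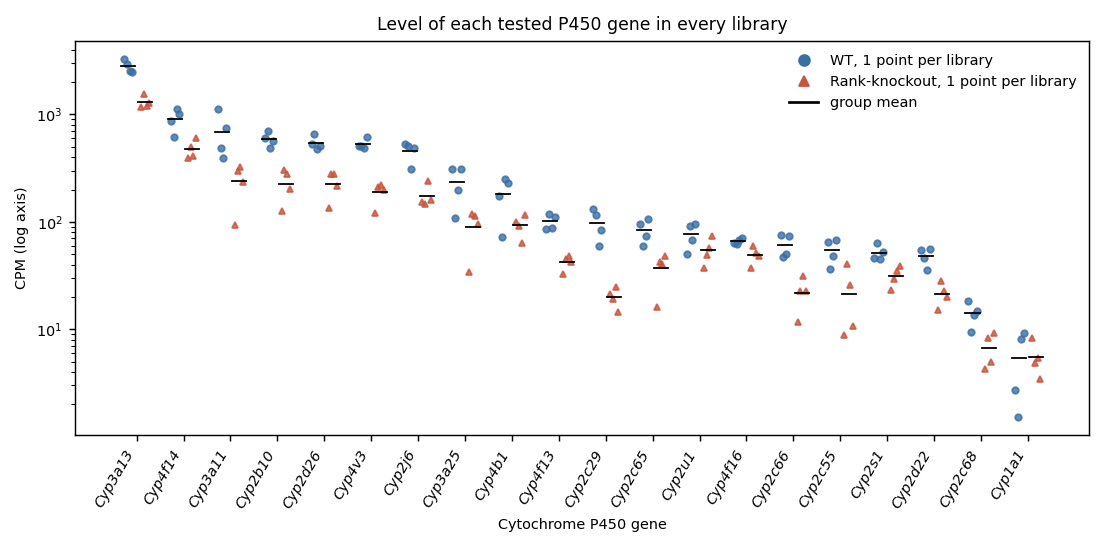
CPM of each tested P450 gene in each library on a log axis, with 1 point per library and a bar at the group mean. Cyp3a13 stands alone at the top with 2492 to 3307 CPM in WT against 1181 to 1537 CPM in Rank-knockout. The Rank-knockout points of Cyp2c29 (14.5 to 24.7 CPM) lie well under its WT points (59.4 to 132 CPM).

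The Cyp3a genes encode the broadest drug and steroid oxidising P450 enzymes, and Cyp3a13 is their main form in the mouse small intestine. Cyp3a13 (ENSMUSG00000029727; GRCm38 chromosome 5, 137892932 to 137921619, minus strand) had 3307, 2933, 2553 and 2492 CPM in WT replicates 1 to 4. In Rank-knockout replicates 1 to 4 it had 1181, 1537, 1193 and 1269 CPM. All WT libraries lay above all Rank-knockout libraries, and the log2 fold change was -1.12 (SE 0.15, edgeR with adjusted p = 0.000205). None of the 50-base words in the last 500 bases of its transcripts occurred in another gene. This search covered exact 50-base words only, and shorter or inexact matches to its relatives were not searched.

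Cyp3a11, the inducible PXR target (chromosome 5, 145854426 to 145879964, minus strand), varied more. It had 1128, 484, 393 and 748 CPM in the WT libraries and 92.97, 295, 327 and 236 CPM in Rank-knockout. The ranges did not overlap, but the lowest WT library and the highest Rank-knockout library lay close together. The log2 fold change was -1.54 (SE 0.47, edgeR with adjusted p = 0.043), and this call was lost under 10 of the 17 alternatives. Leaving out WT replicate 1, 2 or 4 gave -1.21, -1.68 and -1.51, with edgeR adjusted p values of 0.058, 0.068 and 0.104. Leaving out Rank-knockout replicate 2 or 4 gave -1.66 and -1.53, with edgeR adjusted p values of 0.059 and 0.095.

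Cyp3a25 (chromosome 5, 145977194 to 146009618) had 313, 109, 199 and 309 CPM in WT against 33.96, 117, 114 and 96.5 CPM in Rank-knockout. WT replicate 2 lay among the Rank-knockout libraries, and the log2 fold change of -1.37 (SE 0.47, edgeR with adjusted p = 0.065) was not called. Without that library it was -1.61 (edgeR adjusted p = 0.034). Of its 3′ words 19.2% also occurred in Cyp3a59 or Cyp3a57, so tags from these words may be lost or misplaced. Cyp3a59 had 4 counts and Cyp3a57 had 1 over all libraries, against 2735 for Cyp3a25. Cyp3a44 was near the limit of detection, with 10 counts in the WT libraries and 12 in Rank-knockout (mean 1.38 and 0.637 CPM). All 12 were in Rank-knockout replicate 1.

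Cyp2b10, the reporter gene of CAR activity (ENSMUSG00000030483; chromosome 7, 25897620 to 25926624, plus strand), had 606, 701, 484 and 566 CPM in WT against 126, 302, 279 and 201 CPM in Rank-knockout. The groups were far apart, and the log2 fold change was -1.38 (SE 0.23, edgeR with adjusted p = 0.0009). It was the only member of its subfamily of 5 genes with at least 20 counts.

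Both described Cyp2d genes lie on chromosome 15. Cyp2d22 is regarded as the mouse counterpart of human CYP2D6, an enzyme of drug metabolism. Cyp2d26 (82790101 to 82794294, minus strand) had 536, 658, 473 and 512 CPM in the WT libraries and 136, 281, 279 and 215 CPM in Rank-knockout, a log2 fold change of -1.27 (SE 0.20, edgeR with adjusted p = 0.000599). Cyp2d22 (82370527 to 82380260, minus strand) was lower in level, with 54.8, 46.1, 35.5 and 55.9 CPM in WT against 15.1, 28.1, 22.9 and 19.8 CPM in Rank-knockout. Its log2 fold change was -1.18 (SE 0.22, edgeR with adjusted p = 0.0011). Both genes had every WT library above every Rank-knockout library. They share 3′ sequence with relatives, with 25.7% of the words of Cyp2d26 and 14.97% of those of Cyp2d22 found in other genes.

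Cyp1a1, the classic AHR target, was the only tested member with a log2 fold change above 0. It had 2.74, 1.52, 8.195 and 9.32 CPM in the WT libraries and 8.28, 4.88, 5.396 and 3.43 CPM in Rank-knockout. The genotypes overlapped widely, and the log2 fold change of 0.22 (SE 0.50, edgeR with adjusted p = 0.77) was not called. Its sign turned without WT replicate 2 (-0.28) and without Rank-knockout replicate 1 (-0.10). With 36 counts in WT against 77 in Rank-knockout, it was measured with less precision than the other tested members. Cyp1a2 and Cyp1b1 had 0 counts.

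The Cyp2c genes encode enzymes that oxidise drugs and also convert arachidonic acid to epoxides or hydroxylated products. All 7 described Cyp2c genes lie on chromosome 19, and 4 of the 5 tested were lower. Cyp2c29 (ENSMUSG00000003053; 39269405 to 39330713, plus strand) had 132, 115, 59.4 and 84.5 CPM in the WT libraries and 21.4, 19.1, 24.7 and 14.5 CPM in Rank-knockout. This was a log2 fold change of -2.31 (SE 0.24, edgeR with adjusted p = 9.88e-05), the largest among the members. The lowest WT library held more than the highest Rank-knockout library by a wide margin, and none of its 3′ words were shared with another gene. Cyp2c29 moved from rank 11 among the members by mean CPM in WT to rank 18 in Rank-knockout.

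Cyp2c65 and Cyp2c66 are neighbours of each other, at 39061015 to 39093944 and 39113898 to 39187072 on the plus strand. Cyp2c65 had 95.2, 59.04, 73.1 and 106 CPM in WT against 16.1, 42.03, 40.5 and 48.5 CPM in Rank-knockout. Cyp2c66 had 74.7, 47.4, 49.9 and 73.2 CPM in the WT libraries and 11.7, 22.5, 31.02 and 22.7 CPM in Rank-knockout. Neither gene overlapped between genotypes, with log2 fold changes of -1.18 (SE 0.30, edgeR with adjusted p = 0.012) and -1.50 (SE 0.26, edgeR with adjusted p = 0.000923). Of the 3′ words of Cyp2c66, 21.5% also occurred in Cyp2c65, so that their separate values are uncertain.

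Cyp2c68 had 18.5, 9.38, 13.7 and 14.6 CPM in WT against 4.25, 8.26, 4.95 and 9.23 CPM in Rank-knockout. The ranges were separate only by a small gap, and the log2 fold change was -1.02 (SE 0.31, edgeR with adjusted p = 0.021). The call was lost without WT replicate 1 (-0.89, edgeR adjusted p = 0.068), Rank-knockout replicate 1 (-0.81, 0.075) or Rank-knockout replicate 3 (-0.93, 0.057). It shares 51.2% of its 3′ words with Cyp2c40, Cyp2c67 and Cyp2c69, so its counts cannot be given to 1 gene with certainty. Over all libraries Cyp2c40 and Cyp2c69 had 0 counts and Cyp2c67 had 1, against 194 for Cyp2c68. Cyp2c55, an arachidonic acid hydroxylase of the gut, had 64.4, 36.5, 47.8 and 67.9 CPM in the WT libraries and 8.92, 40.2, 25.6 and 10.8 CPM in Rank-knockout. Rank-knockout replicate 2 lay above WT replicate 2, and the log2 fold change of -1.38 (SE 0.47, edgeR with adjusted p = 0.052) was not called. Without Rank-knockout replicate 2 it was -1.89 (edgeR adjusted p = 0.0035), and with all 8 libraries it was called without the filter (edgeR adjusted p = 0.026). Cyp2c23, an epoxygenase of the kidney, had 21 counts in WT against 20 in Rank-knockout (mean 2.70 and 1.78 CPM). Cyp2c38 had 16 and 5 counts (mean 1.87 and 0.397 CPM). Neither passed the filter.

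Cyp2j6 belongs to a subfamily of fatty acid epoxygenases (ENSMUSG00000052914; chromosome 4, 96516138 to 96553661, minus strand). It had 533, 504, 313 and 491 CPM in the WT libraries and 153, 146, 241 and 159 CPM in Rank-knockout, and all WT libraries were higher. The log2 fold change was -1.40 (SE 0.19, edgeR with adjusted p = 0.00025). Its neighbour Cyp2j9 had 23 counts in WT against 19 in Rank-knockout and was not tested. Cyp2s1, an epithelial P450 outside the liver (chromosome 7, 25802475 to 25816913, minus strand), had 45.9, 63.4, 45.1 and 51.9 CPM in the WT libraries and 23.3, 29.3, 34.6 and 39.01 CPM in Rank-knockout. It had the smallest called fall, a log2 fold change of -0.73 (SE 0.19, edgeR with adjusted p = 0.0096).

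Family 4 enzymes hydroxylate the far end of fatty acids, and those of Cyp4f act on leukotriene B4. Cyp4f14 (ENSMUSG00000024292; chromosome 17, 32905070 to 32917342, minus strand) was the second most abundant member, with 869.97, 622, 1119.996 and 1002 CPM in WT against 396, 497, 406 and 607 CPM in Rank-knockout. WT replicate 2 lay just above Rank-knockout replicate 4, and the log2 fold change was -0.92 (SE 0.19, edgeR with adjusted p = 0.0024). Cyp4f13, next to it at 32924688 to 32947402, had 85.6, 119, 87.4 and 112 CPM in the WT libraries and 32.9, 44.7, 48.6 and 42.2 CPM in Rank-knockout. Its libraries were clearly apart, with a log2 fold change of -1.28 (SE 0.17, edgeR with adjusted p = 0.000189).

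Cyp4f16, on the same chromosome, differed least among the Cyp4f genes tested. It had 63.02, 62.8, 68.3 and 70.6 CPM in WT against 36.9, 60.04, 50.8 and 47.98 CPM in Rank-knockout. The ranges did not overlap, yet the log2 fold change of -0.44 (SE 0.17, edgeR with adjusted p = 0.055) was not called, and it was -0.55 without Rank-knockout replicate 2 (edgeR adjusted p = 0.035). As a share of all member counts it took 0.727% to 0.998% in the WT libraries and 1.40% to 1.57% in Rank-knockout. Cyp4f40 had 9 counts in WT against 34 in Rank-knockout (mean 1.31 and 2.37 CPM), and 25 of the 34 were in Rank-knockout replicate 4.

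Cyp4v3, the counterpart of human CYP4V2 and a fatty acid hydroxylase (ENSMUSG00000079057; chromosome 8, 45304944 to 45333216, minus strand), had 506, 509, 486 and 623 CPM in WT. It had 121, 209, 223 and 198 CPM in Rank-knockout, which is less than every WT library by a wide margin. The log2 fold change was -1.50 (SE 0.18, edgeR with adjusted p = 0.000132). Cyp4b1 (chromosome 4, 115624725 to 115647723) had 175, 71.7, 251 and 230.3 CPM in the WT libraries and 98.7, 92.3, 63.8 and 115 CPM in Rank-knockout. WT replicate 2 lay within the Rank-knockout range, and the log2 fold change of -0.95 (SE 0.36, edgeR with adjusted p = 0.074) was not called. Without that library it was -1.24 (edgeR adjusted p = 0.000167), and with all 8 libraries it was called without the filter (edgeR adjusted p = 0.0033). Cyp2u1, a fatty acid hydroxylase outside family 4 (chromosome 3), had 50.01, 90.7, 68.3 and 96.5 CPM in WT against 37.4, 49.5, 57.1 and 74.1 CPM in Rank-knockout. The groups overlapped, and the log2 fold change was -0.50 (SE 0.23, edgeR with adjusted p = 0.11). It was -0.67 without WT replicate 1 (edgeR adjusted p = 0.041) and -0.69 without Rank-knockout replicate 4 (edgeR adjusted p = 0.026).

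Some libraries stood out across members. Rank-knockout replicate 1 was the lowest of all 8 libraries in 16 of the 20 tested members. It also had the lowest sum of villus enterocyte markers (14493 CPM) and the highest sum of crypt and cycling cell markers (2242 CPM). Without it, 13 members were lower and the median log2 fold change of the tested members was -1.08. WT replicate 1 was the highest library in 7 members and WT replicate 4 in 7. WT replicate 2 was low in Cyp3a25, Cyp4b1 and Cyp4f14 and had the lowest WT sums of villus enterocyte markers (26915 CPM) and of proximal small intestine genes (5771 CPM), but it was the highest library for Cyp2b10 and Cyp2d26. The part of these libraries' makeup in the results was not tested. The spread of a member over the 4 libraries of a genotype, as the SD in percent of the mean, was 23.8% in the WT libraries and 26.9% in Rank-knockout at the median over the tested members.

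To ask whether members of 1 subfamily fell unevenly, the log2 ratio of the counts of 2 members was compared within libraries, which does not depend on scaling. These were the 2 tested members of a subfamily with the highest mean CPM over all libraries of both genotypes. There were 4 such pairs, and an exact two-sided permutation test over 70 assignments, with a smallest possible p of 0.029, called 0 of them after adjustment over the pairs. A pair that differed alone could not go below an adjusted p of 0.11, so the count of 0 says little and the values are given for their size. The ratio of Cyp2c65 to Cyp2c29 was -0.46, -0.96, 0.30 and 0.32 in WT and -0.41, 1.13, 0.71 and 1.73 in Rank-knockout. Rank-knockout libraries leaned to Cyp2c65 but overlapped with WT, with a difference of 0.99 (interval -0.73 to 2.69; exact p = 0.11, adjusted 0.46). The difference was -0.13 for Cyp2d26 to Cyp2d22 (-0.67 to 0.40; exact p = 0.51, adjusted 0.51). It was 0.44 for Cyp3a13 to Cyp3a11 (-0.83 to 2.11; exact p = 0.49, adjusted 0.51) and 0.35 for Cyp4f14 to Cyp4f13 (-0.61 to 1.45; exact p = 0.34, adjusted 0.51). The intervals come from inverting the same test and are wide, so the p values do not show that the members of a pair changed alike.

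**Figure D4:**
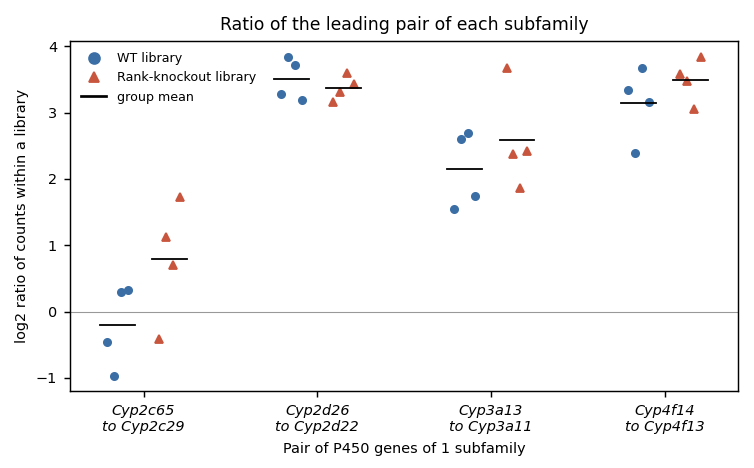
Log2 ratio of counts for the leading pair of genes of each subfamily in each library, with bars at the group means. The Cyp2d26 to Cyp2d22 ratio lies between 3.16 and 3.83 in all libraries, while the Cyp2c65 to Cyp2c29 ratio spans -0.96 to 0.32 in WT and -0.41 to 1.73 in Rank-knockout.

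Genes that work with the P450 enzymes were examined in 5 lists with 94 genes, of which 59 were tested. In Rank-knockout 23 of them were lower and 3 were higher, with a median log2 fold change of -0.47, beside 14.6% lower and 15.8% higher among all genes tested. The lists were chosen with earlier results of these data known.

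P450 reductase, cytochrome b5 and heme supply genes provide electrons and heme. Of 16 tested, 6 were lower and 0 were higher, beside 14.6% lower and 30.4% called in either direction among all genes tested. Por, the reductase that serves every member, had 391, 383, 319 and 362 CPM in WT against 136, 233, 218 and 224 CPM in Rank-knockout. The groups did not overlap, and the log2 fold change was -0.85 (SE 0.17, edgeR with adjusted p = 0.0018). Cyb5r3, the cytochrome b5 reductase, fell by 0.93 (SE 0.16, edgeR with adjusted p = 0.000811) on the log2 scale. Cyb5b fell by 0.76 (SE 0.15, edgeR with adjusted p = 0.0016) and Pgrmc1, a heme-binding partner of P450 enzymes, fell by 0.75 (SE 0.17, edgeR with adjusted p = 0.0041). The median of this list was -0.24, and most of its heme synthesis genes were not called.

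Among receptors that control P450 genes and their partners, 6 of 21 tested genes were lower and 1 was higher, with a median log2 fold change of -0.35. Together these 7 calls are a share near the 30.4% of all tested genes called in either direction. Nr1i3, which encodes CAR, had 246, 308, 169 and 265 CPM in the WT libraries and 104, 167, 179 and 141 CPM in Rank-knockout. Its ranges overlapped by 1 library on each side, and the log2 fold change was -0.75 (SE 0.19, edgeR with adjusted p = 0.0092). Nr1i2, which encodes PXR, had 530.03 ± 122 CPM in WT against 361 ± 63.6 CPM in Rank-knockout (SD, n = 4), and its log2 fold change was -0.56 (SE 0.17, edgeR with adjusted p = 0.024). That call was lost without WT replicate 2 (-0.39, edgeR adjusted p = 0.069) and without Rank-knockout replicate 1, 2 or 3 (-0.54, -0.54 and -0.47, with 0.055, 0.064 and 0.086). Hnf4g, an enterocyte receptor that binds the HNF4 motif, fell by 0.82 (SE 0.17, edgeR with adjusted p = 0.0027), whereas Hnf4a was 132 ± 30.8 CPM in the WT libraries and 148 ± 5.98 CPM in Rank-knockout (log2 fold change 0.17, edgeR with adjusted p = 0.45). Vdr, the vitamin D receptor, fell by 0.59 (SE 0.14, edgeR with adjusted p = 0.0061). Ahr was 6.35 ± 2.85 and 6.91 ± 0.962 CPM (log2 fold change 0.13, edgeR with adjusted p = 0.80). The higher gene was Hsp90ab1, a chaperone of AHR and many other proteins, with a log2 fold change of 1.07 (SE 0.18, edgeR with adjusted p = 0.000667).

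Targets of these receptors outside the P450 genes included 7 of 13 tested that were lower and 0 that were higher, with a median of -1.01. Abcc2, an efflux pump for conjugates, had 417, 430.3, 328 and 527 CPM in WT against 112, 239, 212 and 181 CPM in Rank-knockout. All WT libraries were higher, and the log2 fold change was -1.20 (SE 0.21, edgeR with adjusted p = 0.0011). Ces2e, a carboxylesterase, fell by 1.02 (SE 0.18, edgeR with adjusted p = 0.000831) on the log2 scale. Fmo5, a flavin monooxygenase, fell by 1.01 (SE 0.16, edgeR with adjusted p = 0.000532) and Abcg2, another efflux pump, by 0.70 (SE 0.17, edgeR with adjusted p = 0.0055).

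Epoxide hydrolases act on the epoxides that Cyp2c and Cyp2j enzymes make, and the list also holds enzymes that make or break down prostaglandins and leukotrienes. Of 5 tested genes 3 were lower. Ephx2, the soluble epoxide hydrolase, had 947, 949, 1018 and 1210.1 CPM in the WT libraries and 341, 490.1, 491 and 495 CPM in Rank-knockout. The log2 fold change was -1.18 (SE 0.16, edgeR with adjusted p = 0.000191), with no overlap. Hpgd, which breaks down prostaglandins, fell by 1.25 (SE 0.25, edgeR with adjusted p = 0.0029), and Ltc4s, the leukotriene C4 synthase, fell by 0.93 (SE 0.25, edgeR with adjusted p = 0.011).

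P450 genes of other families did not share 1 direction. Of 22 listed, 12 had 0 counts and 4 were tested. The list also holds Cyp2ab1, a family 2 gene whose symbol falls outside the rule for members, which had 1 count in all and was not tested. Cyp39a1, an oxysterol hydroxylase, had 2.06, 2.53, 4.78 and 3.33 CPM in WT against 7.85, 10.5, 8.09 and 7.91 CPM in Rank-knockout, and every Rank-knockout library was higher (log2 fold change 1.47, SE 0.33, edgeR with adjusted p = 0.0042). Cyp51, which acts in cholesterol synthesis, was also higher, with a log2 fold change of 0.58 (SE 0.16, edgeR with adjusted p = 0.014), and this call was lost without WT replicate 1 (0.44, edgeR adjusted p = 0.074) or WT replicate 4 (0.51, 0.060). Cyp27a1, the mitochondrial sterol hydroxylase, fell by 1.03 (SE 0.25, edgeR with adjusted p = 0.0057).

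**Figure D5:**
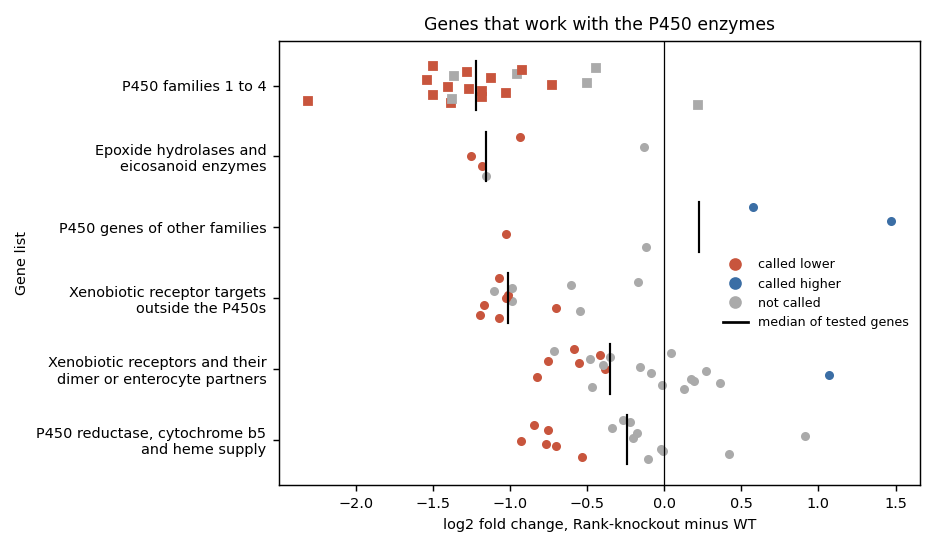
Log2 fold change, Rank-knockout minus WT, of each tested gene in the 5 partner lists (circles) and of the tested P450 genes of families 1 to 4 (squares), with a black bar at each median. Red marks genes called lower, blue genes called higher and grey genes not called. The medians run from -1.22 for the P450 genes of families 1 to 4 to 0.23 for P450 genes of other families.

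Markers of cell types moved with the genotype. All 15 villus enterocyte markers were lower in Rank-knockout, with a median log2 fold change of -1.16, and their summed level was 26915 to 38275 CPM in the WT libraries and 14493 to 19271 CPM in Rank-knockout. Of 14 crypt and cycling cell markers 11 were higher and 0 lower, with a median of 1.18 and sums of 627 to 944 CPM in WT against 1239 to 2242 CPM in Rank-knockout. The summed P450 level was 27.3%, 26.9%, 19.7% and 20.2% of the summed villus marker level in the WT libraries and 17.7%, 23.1%, 22.3% and 17.8% in Rank-knockout, so on this scale, added after seeing the data, the genotypes overlapped. Both sums rest largely on a few abundant genes. In WT these were Apoa4, Mgam and Slc5a1 (mean 8891, 6669 and 5893 CPM) among the markers and Cyp3a13 (2822 CPM) among the P450 genes. The part of the cell type markers in the P450 result was not tested.

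Genes listed as marking regions of the small intestine were lower in part. Of 8 tested proximal small intestine genes 3 were lower (Adh6a, Ces2e and Lct) and 5 were not called. The proximal sums were 5771 to 9240.4 CPM in WT against 3187 to 5669 CPM in Rank-knockout. Among all genes tested, 14.6% were called lower and 30.4% in either direction. Of 6 tested ileal genes 4 were lower and Guca2a and Slc51a were not called, with sums of 5254 to 5722 and 2767 to 3638 CPM, and Fgf15 was at 0. Fabp6, the ileal bile acid binding protein, did not pass the filter, with 13 counts in WT and 85 in Rank-knockout. Every Rank-knockout library was higher for Fabp6, and without the filter it had a log2 fold change of 2.002 (edgeR adjusted p = 0.00069). The regional genes were named after their values were seen. Of the 3 lower proximal genes, Ces2e is also in the list of receptor targets and Lct among the villus enterocyte markers. The proximal genes not called had log2 fold changes of -0.15 for Onecut2, -0.19 for Gata4, -0.64 for Fabp1, -1.002 for Pdx1 and -1.09 for Slc40a1 (edgeR adjusted p = 0.54, 0.51, 0.074, 0.20 and 0.21), and Fabp1 and Pdx1 were called without the filter (edgeR adjusted p = 0.0024 and 0.024). The part of these regional genes in the P450 result was not tested.

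P450 genes are best known from liver, but hepatocyte markers were near 0. None of the 9 passed the filter, their sum was 2.06 to 3.99 CPM in the WT libraries and 0 to 3.002 CPM in Rank-knockout, and Fga, Fgb, Fgg, Mup3 and Tat had 0 counts. Pancreatic acinar markers summed to 36.2 to 62.1 CPM in WT against 30.8 to 50.3 CPM in Rank-knockout with 0 of 1 tested gene called. Cela1 made up all of that sum in WT, where every other acinar marker had 0 counts, and the others had 0 to 4 counts each in Rank-knockout. Of 7 goblet cell markers 4 were lower and 2 higher (sums 13084 to 17410.1 and 7363 to 10073 CPM). Of 7 Paneth cell markers 4 were higher (2097 to 4478 and 2907 to 9347 CPM), and of 8 enteroendocrine markers 1 was higher (408 to 487 and 363 to 603 CPM). No call was made among 4 tuft cell markers (25.3 to 42.5 and 28.997 to 37.3 CPM) or 6 T cell markers (183 to 279.6 and 123 to 198 CPM), and 1 of 2 plasma cell markers was lower (54.6 to 153 and 9.89 to 53.7 CPM). Stromal, muscle and endothelial markers were not tested, at 5.33 to 7.60 and 2.25 to 10.1 CPM, with Cdh5 and Lum at 0.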

How the data were processed

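Intestinal epithelial RNA of 4 WT and 4 Rank-knockout samples was read by 3′ mRNA sequencing. The authors trimmed reads with BBDuk, removed abundant sequences with bowtie2, aligned to GRCm38 with STAR and counted sense reads per gene with featureCounts. The deposited values are raw counts per gene, which the authors compared by DESeq2. No source used here names molecular identifiers, so a PCR copy adds a read, and tags shared by near-identical genes may be lost or misplaced.

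Gene names and positions came from GENCODE M21 on the same build, where 54495 of 54532 identifiers were found. Genes were tested with edgeR 4.0.16 (R 4.3.3), using the robust quasi-likelihood F-test on genotype after filterByExpr and TMM scaling, and Benjamini-Hochberg adjustment over 9855 genes at a threshold of 0.05. CPM used TMM library sizes, and each SE was derived from the F statistic. Ratios within a library used a prior count of 0.5. Total counts were 1530781 to 4335653 per library, which limits genes with few counts. Replicates of a genotype differed beyond sampling noise. The test was also tried on simulated data with far fewer changed genes than were called here. There it missed most of the small changes and part of the 2-fold ones. Its share of false calls ran somewhat above the threshold for 2-fold and larger changes. These rates need not hold for the present data, and a gene that is not called may still differ.

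The text names every member with at least 20 counts, the called genes of each partner list with the smallest p, up to 4 per list, and Por, Ahr, Nr1i2, Nr1i3, Hnf4a and Tnfrsf11a. The members and lists were chosen with earlier results of these data known. Alternatives were DESeq2 1.42.0, limma-voom (limma 3.58.1), RLE size factors, unscaled library totals, no filter, a mean CPM of at least 5, library sizes that leave out the 50 most abundant genes, the replicate number as a block, thinning to the shallowest library and each library left out in turn. The alternatives with the 50 genes left out and with thinning, and leaving out libraries for the summed level, were added after seeing the data. One gene that fits the symbol rule is not reported here and is not among the 74.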

Additional observations from a re-analysis of the deposited data

Results flagged for a closer look

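In each group of 4 libraries, the described P450 genes were searched for a library whose gap to the nearest other library, relative to the range of the group, exceeded Dixon's critical value for 4 samples. This was met in 5 of 50 sets, where chance gives about 2.5. Cyp2c23 had 4.66 CPM in WT replicate 4 and 2.03 to 2.06 CPM in the other WT libraries. Cyp2j6 had 240.6 CPM in Rank-knockout replicate 3 and 146 to 159 CPM in the other Rank-knockout libraries. Cyp3a44 had 2.55 CPM in Rank-knockout replicate 1 and 0 counts in the others. Cyp4f40 had 6.59 CPM in Rank-knockout replicate 4 and 0.849 to 1.13 CPM in the others. Cyp4v3 had 623 CPM in WT replicate 4 and 486 to 509 CPM in the other WT libraries. Cyp2j6 and Cyp4v3 were called lower with each library left out in turn, and the other 3 genes were below the filter on low counts.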

How the results depend on the processing

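The count of lower P450 genes was 14 and stayed between 12 (library totals) and 17 (DESeq2), with 16 by limma-voom and 13 to 15 when each library was left out, and 0 were higher under every alternative run. Lower partner genes numbered 18 to 24 and higher ones 2 to 4, and leaving out libraries gave 18 to 23 and 2 to 4. The difference in mean log2 summed level was -1.21, and -1.28 to -1.09 without 1 library. Library totals moved the median of all genes by 0.20 and gave 2566 higher and 859 lower genes in place of 1555 and 1438, and leaving the 50 most abundant genes out moved it by 0.13. The median of the tested P450 genes was then -1.03 and -1.10. Among single values of P450 genes under alternatives, 306 kept direction and call, 17 gained a call, 14 lost it and 2 turned sign. Without 1 library Cyp1a1 ranged from -0.28 to 0.62 and Ahr from -0.12 to 0.31. Signs turned for Cyp1a1 without WT replicate 2 (-0.28) and without Rank-knockout replicate 1 (-0.10), and for Ahr without WT replicate 4 (-0.12) and after thinning (-0.0011). Beyond the losses without 1 library given above, Cyp3a11 was not called with library totals, no filter (edgeR adjusted p = 0.128), the 50 most abundant genes left out, or thinning, and Cyp2c68, Nr1i2 and Tnfrsf11a were not called with library totals. Nr1i2 and Tnfrsf11a also lost the call with the 50 most abundant genes left out, and Ltc4s with thinning. Calls were gained by Cyp2c55 with no filter, DESeq2, limma-voom and thinning, by Cyp4b1 with no filter, DESeq2 and thinning, by Cyp3a25 with DESeq2 and by Cyp4f16 with limma-voom. The cause was not tested.

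Same-numbered samples deviated together with correlations of 0.052, 0.15, -0.14 and 0.33, and not every sample correlated best with its own number, so the numbers are names only. With the replicate block 15 P450 genes were lower and 0 higher, and 24 partner genes were lower and 3 higher. In that paired fit Cyp3a11 was not called (-1.51, edgeR adjusted p = 0.229), while Cyp2u1 (-0.49) and Cyp4f16 (-0.45) were. No pair ratio was called with the block, with a prior count of 2 or without 1 library, but a pair that differed alone could not pass after adjustment in any of these, so this says nothing about stability.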

Other observations

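The 21 members with 1 to 19 counts were mostly spread thinly over libraries. Cyp2d10 had 15 of its 18 counts and Cyp2d34 had 16 of its 18 counts in WT replicate 2, with 0 to 2 counts in each other library. Cyp2a12 had 4, 3, 1 and 2 counts in the WT libraries and 0, 1, 0 and 0 in the Rank-knockout libraries. Cyp2r1, a vitamin D 25-hydroxylase, had 0, 1, 2 and 1 counts in WT and 4, 0, 4 and 3 in Rank-knockout. None of these genes passed the filter on low counts, and no test was made.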
